A study of Saccharomyces cerevisiae with 6 samples.

Results

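The genes described here make, desaturate, lengthen and activate the long-chain fatty acids of budding yeast. They are ACC1, FAS1 and FAS2 (synthesis), OLE1 (desaturation), ELO1, ELO2 and ELO3 (elongation), and FAA1, FAA3 and FAA4 (activation to acyl-CoA). They were chosen by name, 10 of the 6461 genes in the count table, with the adaptation of membranes to temperature in view, and all 10 passed the filter on low counts that left 5181 genes to test. The mRNA of total RNA was counted by 3′-Tag-seq, a method that reads mRNA next to its poly(A) tail, in 2 biological replicates of each of 3 conditions. Cells of the 37°C group were grown at 25°C, diluted with as much pre-warmed medium again and kept at 37°C for 2 h. Cells of the 30°C and 25°C groups grew in YPD at those temperatures, with no such dilution described, so that temperature, the shift itself and fresh medium cannot be told apart at 37°C. All 3 groups share the BY4741/2 background and a strain that carries CBP80-PPX-PrA, the large cap-binding subunit with a protein A tag, and SNAPf-YRA1, a SNAP tag on the export adaptor Yra1. This is a single strain, and no untagged strain is compared here.

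Fatty acid synthesis starts when acetyl-CoA carboxylase, Acc1, makes malonyl-CoA. The fatty acid synthase, built of the Fas1 and Fas2 subunits, uses malonyl-CoA to build saturated chains. Ole1, the only fatty acid desaturase of this yeast, puts a double bond into these chains, and unsaturated chains keep membranes fluid. The elongases extend chains in the endoplasmic reticulum, up to the very long chains that sphingolipids carry, and the Faa enzymes join free fatty acids to coenzyme A. In yeast, OLE1 is known as a gene that responds to cold, to low oxygen and to unsaturated fatty acids in the medium.

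Annotated genes received 184456 to 1006632 counts per library. The first 25°C replicate was the shallowest and stood apart: its log2 CPM (counts relative to library size, scaled by TMM) correlated with those of the other 5 libraries at r = 0.716 to 0.862, where the other pairs of libraries gave 0.904 to 0.974. Here 3 counts are 17.6 CPM in that library and 2.81 to 4.25 CPM in the other 5. Of the marker genes of the background, URA3 and MET17 had 0 counts in each library. LYS2 had at most 1 count, LEU2 at most 2 and HIS3 3 to 124. The mating type a genes STE2, MFA1 and MFA2 had 22 to 273, 2 to 86 and 12 to 759 counts. Of the alpha genes, STE3 had at most 5 counts and MF(ALPHA)1 at most 1, but SAG1 had 12 to 43. The annotation holds no untranslated regions, and 41.1% to 47.9% of the reads of a library fell in no annotated gene. A level in CPM is therefore compared only for the same gene between libraries, and the levels of different genes are not compared. CPM is a share of all counted reads, so fewer mRNAs per cell and a larger pool of other mRNAs cannot be told apart.

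The 10 genes lie on 10 chromosomes, each with a single coding exon, and none overlaps another annotated gene in R64. OLE1 lies at chrVII:398628-400160, ACC1 at chrXIV:654673-661374, FAS1 at chrXI:100671-106826 and FAS2 at chrXVI:108652-114315. ELO1 lies at chrX:67850-68782, ELO2 at chrIII:190592-191635 and ELO3 at chrXII:867354-868391. FAA1 lies at chrXV:909343-911445, FAA3 at chrIX:339344-341428 and FAA4 at chrXIII:759807-761891. Reads that fit more than 1 place are not counted for a gene, so counts of near-identical stretches can be lost. FAA3 and FAA4 are identical at 76.5% of 2085 aligned coding bases, with a longest identical run of 35 bases, and FAA1 at 64.8% with each of them. The ELO genes are identical at 59.7% to 63.8% of aligned bases, with runs of at most 13.

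The window from 250 bases before to 50 after each start codon was searched on both strands for 4 motifs. They were CATGTG, the core of the inositol response element bound by Ino2 and Ino4, known activators of lipid synthesis genes; ACTCAACAA, the low oxygen response element; AGGGG, the stress response element; and TTACCCG, a Reb1 site. The 5 matches shown are all that the windows of the members hold. Each line gives 30 bases of the gene's strand from R64, with the matched letters in capitals.
FAS2: ctcccgcgttttCACATGctacctcattcg
ELO2: tttgtacgtattCACATGtcctggcgtgcg
FAA1: tttttccttttaCCCCTcacttgtcgtgag
FAA4: ttttgtttgcaaCCCCTctgagttgacata
ELO1: agggtcttggcTTACCCGcgtcggctttac
The printed stretches are chrXVI:108408-108437 (plus strand), chrIII:190413-190442 (plus), chrXV:909207-909236 (plus), chrXIII:759684-759713 (plus) and chrX:68924-68953 (minus), in the order of the lines. The matches begin 232, 167, 124, 111 and 160 bases before the start codon, and those of FAS2, ELO2, FAA1 and FAA4 are the reverse complement of the motif. The CATGTG core was thus in 2 of 10 windows, against 6.92% of the windows of 5996 nuclear coding genes. AGGGG was in 2 of 10, against 21.6%, TTACCCG in 1 of 10, against 7.09%, and ACTCAACAA in 0 of 10, against 0.167%. A match is a run of letters and not a measured site. Sequence outside the window was not searched, so a motif further upstream, of OLE1 or any other member, would be missed.

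Of the 10 genes, OLE1 had the smallest unadjusted p at 37°C, and its 2 libraries there stood above all 4 at the lower temperatures. The synthase genes FAS1 and FAS2 stood above them too, by less. The elongase gene ELO3 stood below both 30°C libraries, and ACC1 and the FAA genes differed by at most 0.46 on the log2 scale in any comparison. None of these differences passed the thresholds of the study, which asks for a fold change beyond 1 on the log2 scale (log2FC) in either direction and an adjusted p below 0.05. edgeR's quasi-likelihood test called 0 of 10 in each comparison, where it called 0% of all genes tested. At an unadjusted p below 0.05 it counted 1 of 10 (OLE1) at 37°C against 25°C, where the share of all genes was 13.5%, 0 of 10 against 30°C (7.06%), and 0 of 10 at 30°C against 25°C (1.41%). DESeq2, the tool of the study, gives no adjusted p to genes of low mean count. Against 25°C it left 5 members with one and called 0 of them, where it called 3.96% of genes. Against 30°C it called 0 of 10 (0.282% of genes) and at 30°C against 25°C 0 of 10 (0%). At an unadjusted p below 0.05 DESeq2 counted OLE1 in both 37°C comparisons (9.1% and 3.48% of genes) and ELO1 at 30°C against 25°C (0.731%).

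The median log2FC of the 10 genes was 0.07 for 37°C relative to 25°C, −0.09 for 37°C relative to 30°C and 0.11 for 30°C relative to 25°C, beside 0.09, −0.01 and 0.08 over all genes tested. The median of the members lay close to that of all genes in each comparison. The log2FC was above 0 in 6 of 10 members at 37°C relative to 25°C (55.4% of all genes), 5 of 10 relative to 30°C (48.7%) and 8 of 10 between 30°C and 25°C (56.1%). In the same order the members ran from −0.62 (ELO3) to 1.16 (ELO1), from −0.93 (ELO3) to 0.82 (OLE1), and from −0.15 (FAA3) to 1.93 (ELO1). Both 37°C libraries stood above both 25°C libraries in 4 of 10 genes (FAS1, FAS2, OLE1 and ELO1), where the share of all genes was 29.4%, and below them in 1 of 10 (FAA3), where it was 23.2%. Against 30°C, 3 of 10 stood above (FAS1, FAS2 and OLE1; 24.3% of all genes) and 1 of 10 below (ELO3; 20.2%). At 30°C against 25°C, 0 of 10 stood above (13.1%) and 0 of 10 below (10.4%). The 2 comparisons at 37°C share their 37°C libraries.

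**Figure D1:**
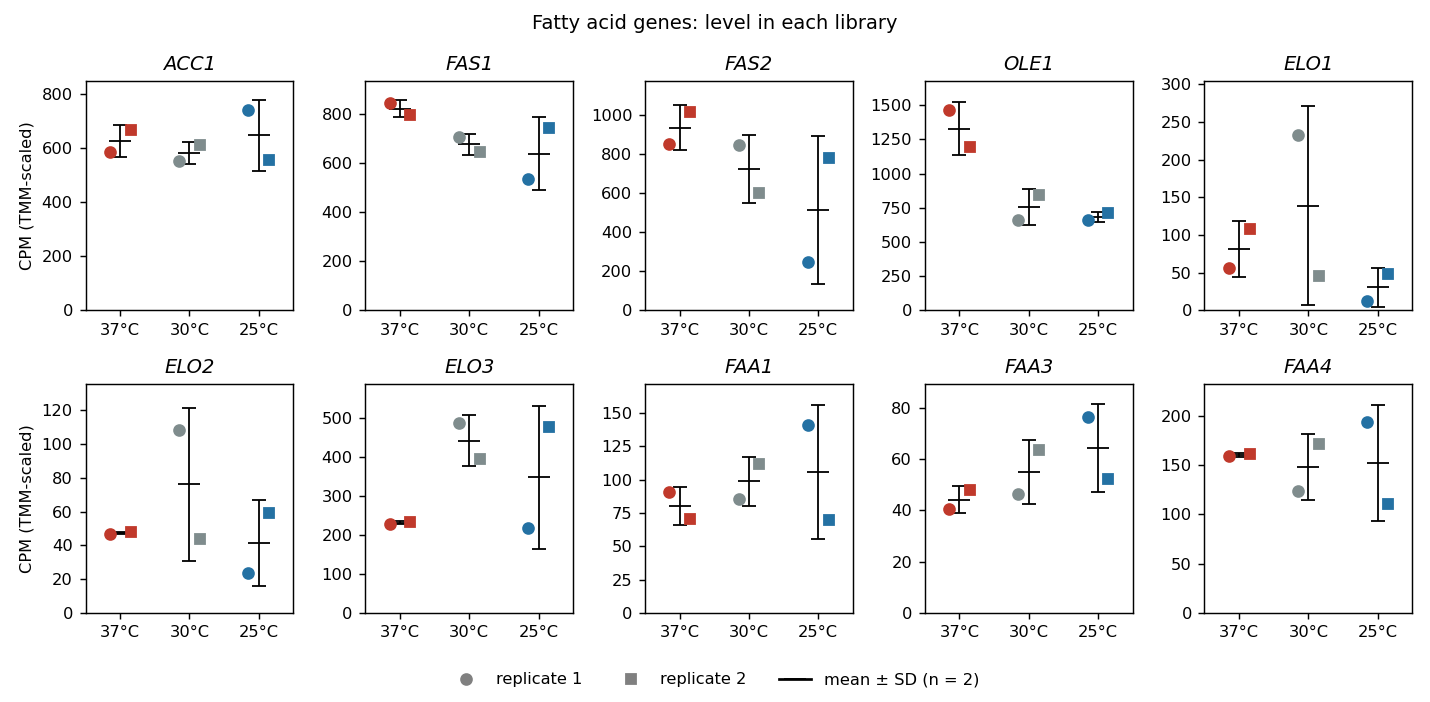
Level of each gene in each library, in CPM (TMM-scaled) on an axis that starts at 0, for 37°C, 30°C and 25°C; circles and squares are replicates 1 and 2, and black bars are the mean ± SD of 2 libraries. Both 37°C points of OLE1, at 1466 and 1193 CPM, lie above its other 4 points, and the 25°C points of FAS2 and ELO3 lie far apart.

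OLE1 (YGL055W) encodes the desaturase. It had 1466 and 1193 CPM at 37°C (replicates 1 and 2), 659.9 and 845 CPM at 30°C, and 658 and 711 CPM at 25°C. The 37°C libraries overlap neither other group, while those at 30°C and 25°C overlap each other. The means were 1329.7 ± 193 CPM at 37°C, 753 ± 131 CPM at 30°C and 685 ± 37.5 CPM at 25°C (SD, n = 2 each). The log2FC was 0.96 at 37°C against 25°C, a fold of 1.94 (95% interval 0.11 to 1.80, SE 0.36, edgeR unadjusted p = 0.0318, adjusted p = 0.341). Against 30°C it was 0.82, a fold of 1.77 (interval −0.02 to 1.66, SE 0.36, edgeR unadjusted p = 0.054, adjusted p = 0.725). DESeq2 gave OLE1 an unadjusted p of 0.0201 against 25°C, with an adjusted p of 0.15, and 0.0382 against 30°C, with an adjusted p of 0.9996. The log2FC at 30°C against 25°C was 0.13 (interval −0.71 to 0.97, SE 0.36). Leaving out a library gave log2FC of 0.81 to 1.10 at 37°C against 25°C and 0.62 to 1.01 against 30°C. Since the 37°C libraries overlap neither other group, a change of sign was hardly possible, and only the size is informative. The unadjusted p against 25°C then ran from 0.0345 to 0.209 in edgeR, so the size of the difference was steadier than its p.

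ACC1 (YNR016C) encodes the carboxylase that supplies malonyl-CoA to the synthase and to the elongases. It had 585 and 668 CPM at 37°C, 553 and 610.3 CPM at 30°C, and 741 and 555 CPM at 25°C, and the 3 groups overlap. The log2FC of ACC1 was −0.04 at 37°C against 25°C (interval −0.85 to 0.76, SE 0.34) and 0.11 against 30°C (interval −0.69 to 0.91, SE 0.34). At 30°C against 25°C it was −0.15 (interval −0.96 to 0.65, SE 0.34). In all 3 comparisons of ACC1 the interval lies within a 2-fold difference in either direction.

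FAS1 (YKL182W) and FAS2 (YPL231W) encode the β and α subunits of the synthase. FAS1 had 846 and 797 CPM at 37°C, 707 and 647 CPM at 30°C, and 535 and 745 CPM at 25°C. FAS2 had 854 and 1018 CPM at 37°C, 846 and 602 CPM at 30°C, and 247 and 782 CPM at 25°C. Both genes were highest in the 37°C libraries, but the margin over the nearest 30°C or 25°C library was small. FAS1 had a log2FC of 0.36 at 37°C against 25°C (SE 0.35, edgeR adjusted p = 0.684) and 0.28 against 30°C (SE 0.35, adjusted p = 0.967). FAS2 had a log2FC of 0.84 against 25°C (interval −0.46 to 2.14, SE 0.55, edgeR adjusted p = 0.538) and 0.37 against 30°C (SE 0.55, adjusted p = 0.972). The value of FAS2 against 25°C rests on the first 25°C replicate, where FAS2 had 42 counts. Leaving that library out gave 0.23, and leaving out the second gave 1.89 (edgeR adjusted p = 0.0493), a setting that called 364 of 5326 genes, or 6.83%. With either omission the 25°C arm is 1 library, assumed to vary like the libraries of the other groups. For FAS1 the same 2 omissions gave 0.11 and 0.58.

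The counts of FAS1 and FAS2 were also set against each other within a library, which is independent of scaling. The ratio of FAS1 to FAS2 was 0.991 and 0.783 in the 37°C libraries, 0.836 and 1.08 in the 30°C libraries, and 2.17 and 0.952 in the 25°C libraries. The first 25°C replicate alone stands off, and the ratio in the other 5 libraries runs from 0.783 to 1.08. The ratio of OLE1 to FAS1 plus FAS2 was 0.863 and 0.657 in the 37°C libraries, 0.425 and 0.677 in the 30°C libraries, and 0.842 and 0.466 in the 25°C libraries. Neither ratio separated any pair of temperatures (exact permutation p = 0.667 in all 6 comparisons, two-sided, not adjusted). In a design of 2 against 2 the smallest possible p of this test is 0.33. On the log2 scale the desaturase to synthase ratio differed by 0.27 at 37°C against 25°C and 0.49 against 30°C. Against 25°C the difference was 0.69 if the first 25°C replicate was omitted and −0.16 if the second was.

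The 3 elongase genes did not share a pattern over the temperatures. ELO3 (YLR372W), for the elongase that makes the longest chains, had 228 and 234 CPM at 37°C, 487 and 395 CPM at 30°C, and 218 and 477 CPM at 25°C. Both 37°C libraries were at a similar level, below both 30°C libraries, with the 25°C libraries on either side. The log2FC of ELO3 was −0.93 at 37°C against 30°C, a fold of 0.523 (interval −1.91 to 0.04, SE 0.41, edgeR unadjusted p = 0.0578, adjusted p = 0.738), and it stayed between −1.08 and −0.80 whichever library was left out, with unadjusted p of 0.00502 to 0.206 in edgeR. Against 25°C it was −0.62 (interval −1.60 to 0.36, SE 0.42, edgeR adjusted p = 0.548). The omission of the first 25°C replicate gave −1.08 (edgeR unadjusted p = 0.00741, adjusted p = 0.318, with the spread taken from the other groups) and that of the second 0.05.

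ELO2 (YCR034W), whose elongase acts on chains shorter than those of Elo3, had 46.9 and 47.8 CPM at 37°C, 108 and 43.9 CPM at 30°C, and 23.5 and 59.2 CPM at 25°C. The 37°C values fall between the replicates of the other temperatures. The log2FC of ELO2 was 0.01 at 37°C against 25°C (interval −1.30 to 1.32, SE 0.56) and −0.69 against 30°C (interval −1.90 to 0.51, SE 0.51), the second being 0.08 without the first 30°C replicate. In the first 25°C replicate ELO2 had 4 counts.

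ELO1 (YJL196C), which extends medium-chain fatty acids, varied most. It had 55.4 and 108 CPM at 37°C, 232 and 45.3 CPM at 30°C, and 11.8 and 48.5 CPM at 25°C, the lowest value coming from 2 counts. Both 37°C libraries stood above both 25°C libraries and within the range of the 30°C pair. The log2FC was 1.16 at 37°C against 25°C (interval −0.87 to 3.19, SE 0.86) and −0.77 against 30°C (interval −2.57 to 1.03, SE 0.76). At 30°C against 25°C it was 1.93, the largest difference of any member (interval −0.10 to 3.96, SE 0.86, edgeR unadjusted p = 0.0591, adjusted p = 0.888). With a library left out, the value at 37°C against 25°C ran from 0.65 (without the second 37°C replicate) to 2.75 (without the second 25°C replicate), and was 0.72 without the first 25°C replicate. The value at 30°C against 25°C was 0.26 without the first 30°C replicate, 3.57 without the second 25°C replicate and 1.54 without the first, and the value against 30°C turned to 0.82 without the first 30°C replicate.

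**Figure D2:**
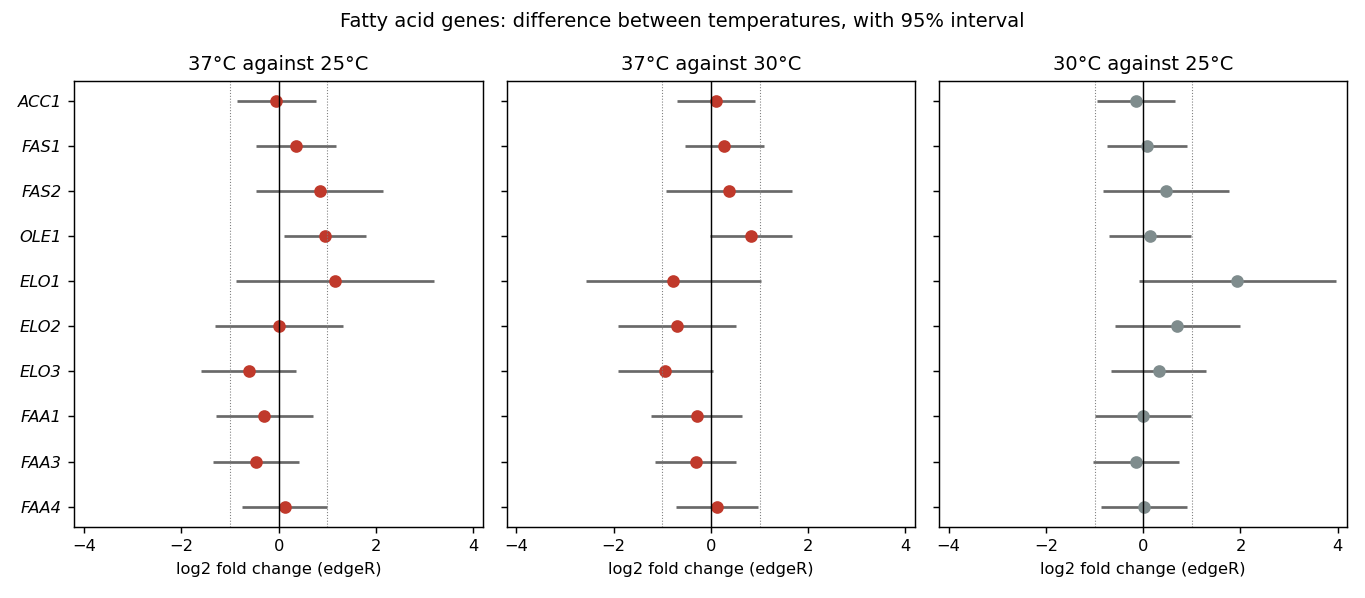
Log2 fold change of each gene from edgeR in the 3 comparisons, with the 95% interval as a bar and dotted lines at −1 and 1. Only the interval of OLE1 at 37°C against 25°C, 0.11 to 1.80, leaves out 0, and those of ELO1 are the widest.

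The Faa enzymes activate fatty acids that are imported or released from lipids. FAA1 (YOR317W), with FAA4 a main source of this activity in growing cells, had 90.6 and 70.3 CPM at 37°C, 85.7 and 112 CPM at 30°C, and 141 and 69.8 CPM at 25°C. FAA4 (YMR246W) had 159 and 161 CPM at 37°C, 124 and 171 CPM at 30°C, and 194 and 110.1 CPM at 25°C. Neither gene separated any pair of temperatures. The log2FC of FAA1 was −0.29 at 37°C against 25°C (SE 0.42) and also −0.29 against 30°C (SE 0.40), and that of FAA4 was 0.13 (SE 0.37) and 0.12 (SE 0.36), with edgeR adjusted p of 0.782 to 0.987 for both genes in both comparisons. FAA3 (YIL009W), which acts on long and very long chains, had 40.5 and 47.8 CPM at 37°C, 46.2 and 63.7 CPM at 30°C, and 76.4 and 52.1 CPM at 25°C. Its 37°C libraries stood below both 25°C libraries, by a margin smaller than the spread at 25°C. The log2FC of FAA3 was −0.46 against 25°C (interval −1.35 to 0.43, SE 0.38, edgeR adjusted p = 0.623) and −0.31 against 30°C (interval −1.14 to 0.53, SE 0.35). It was below 0 at 37°C in all 17 planned settings, the reported fit included, in each of the comparisons with 25°C and 30°C. How many reads fit both FAA3 and FAA4 was not measured.

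The spread between replicates was of the size of the differences between temperatures. At 25°C the higher replicate exceeded the lower by 4.13-fold for ELO1, 3.17-fold for FAS2, 2.52-fold for ELO2, 2.19-fold for ELO3 and 2.02-fold for FAA1, but by 1.08-fold for OLE1. At 30°C it did so by 5.13-fold for ELO1 and 2.47-fold for ELO2, and by 1.09-fold to 1.41-fold for the other 8. At 37°C all but ELO1 (1.95-fold) lay within 1.29-fold. The first 25°C replicate held less FAS1, FAS2 and ELO mRNA than the second and more ACC1 and FAA mRNA. The log2 ratio of the first to the second was −0.48 for FAS1, −1.66 for FAS2 and −2.05 to −1.13 for the ELO genes, and 0.42 for ACC1 and 0.55 to 1.01 for the FAA genes. Between the 30°C replicates all of these ratios had the opposite sign, from −0.47 (FAA4) to 2.36 (ELO1). Depth moves with this in part, since the first 25°C replicate has 184456 counts and the second 884443, and the 30°C replicates 1006632 and 694502. Ribosomal protein genes took 7.71% and 16.1% of the counts at 25°C (replicates 1 and 2) and 20.9% and 12.4% at 30°C, and reads that fit more than 1 place were 14.1% in the first 25°C replicate and 7.81% to 8.58% in the other 5 libraries. The part of these in the spread was not tested.

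**Figure D3:**
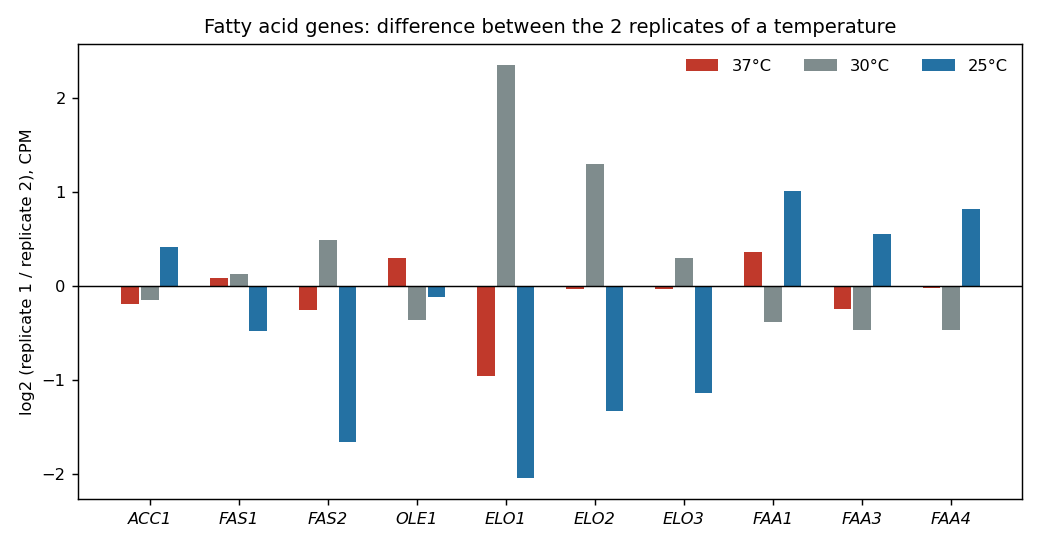
Log2 ratio of replicate 1 to replicate 2 in CPM for each gene, as bars for 37°C, 30°C and 25°C. The bars at 25°C run from −2.05 (ELO1) to 1.01 (FAA1), and those at 30°C mostly point the other way. The bar of OLE1 is the shortest at 25°C (−0.11), but not at 30°C (−0.36) or 37°C (0.30).

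**Figure D4:**
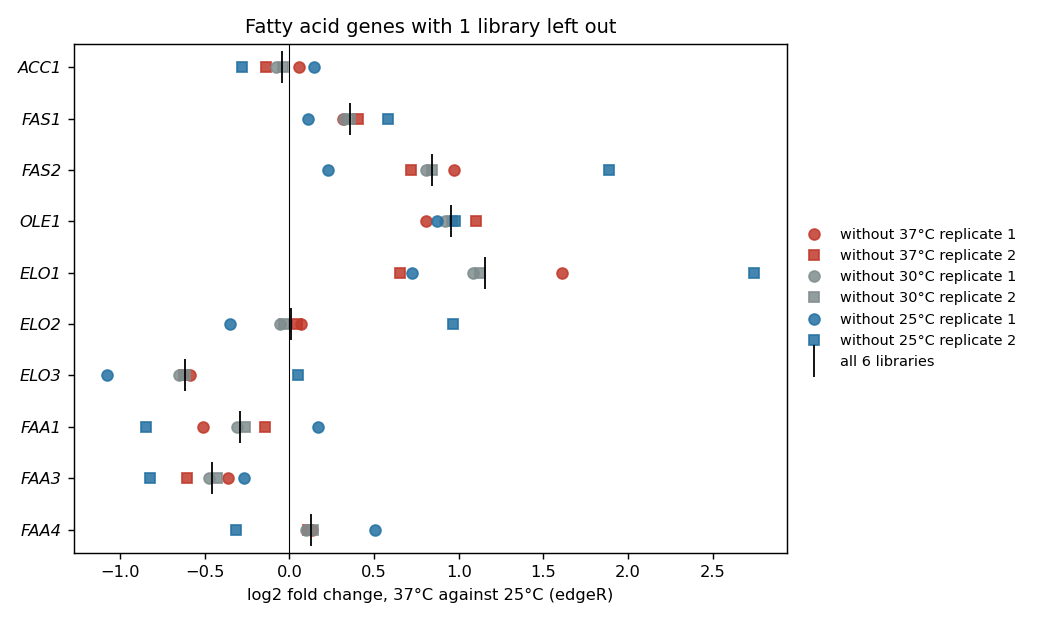
Log2 fold change of each gene at 37°C against 25°C from edgeR with all 6 libraries (black tick) and with each library left out (colored points). The points of OLE1 stay between 0.81 and 1.10, and those of ELO3 run from −1.08 to 0.05 with the 25°C replicates at either end.

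Related genes were taken from 9 lists of 57 genes in all, of which 50 were tested. At 37°C against 25°C edgeR called 0 of 50 and found 10 of them, or 20%, to have an unadjusted p below 0.05, where all genes gave 13.5%. Of these 4 stood higher (7.53% of all genes did) and 6 lower (6.02%). Against 30°C it called 0, with 3 higher (4.65% of all genes) and 3 lower (2.41%), and at 30°C against 25°C 0, with 1 higher (1.1%) and 0 lower (0.309%). None of the related genes named here passed the adjusted threshold in the fit of all 6 libraries.

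Of the 3 enzymes that complete the elongation cycle with the elongases, 1 had an unadjusted p below 0.05. IFA38, the ketoacyl reductase of the cycle, had 72.5 and 60.0 CPM at 37°C, 93.6 and 156 CPM at 30°C, and 176 and 168 CPM at 25°C. Its 37°C libraries stood below all others, with a log2FC of −1.37 against 25°C (SE 0.36, edgeR unadjusted p = 0.006, adjusted p = 0.245) and −0.91 against 30°C (SE 0.35). The value of IFA38 against 25°C ran only from −1.51 to −1.24 with a library left out. TSC13, the enoyl reductase, had log2FC of −0.66 and −0.68 (SE 0.37 and 0.36), also below both 25°C and both 30°C libraries. PHS1, the dehydratase, had 0.71 against 25°C (SE 0.71) and −0.17 against 30°C (SE 0.67), the first being 0.16 without the first 25°C replicate, where PHS1 had 5 counts, and 2.24 without the second.

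Upstream of the synthase, ACS2, the acetyl-CoA synthetase needed for growth on glucose, had 69.3 and 62.8 CPM at 37°C, 115 and 152 CPM at 30°C, and 235 and 133 CPM at 25°C. The 37°C libraries were again the lowest of all 6. The log2FC of ACS2 was −1.43 against 25°C (SE 0.38, edgeR unadjusted p = 0.00681, adjusted p = 0.245) and −1.01 against 30°C (SE 0.37), and −1.04 against 25°C without the first 25°C replicate. SNF1, the kinase that inactivates Acc1, had −0.76 (SE 0.39), and BPL1, the biotin ligase that modifies Acc1, 1.59 (SE 1.05) from 1 to 12 counts per library.

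Among the OLE1 regulators, UBX2, a membrane protein that acts in the release of the activators Mga2 and Spt23, had a log2FC of −1.14 at 37°C against 25°C (SE 0.48, edgeR unadjusted p = 0.0484, adjusted p = 0.362). It was −0.52 without the first 25°C replicate, where UBX2 had 470.3 CPM against 212 CPM in the second. SPT23 had 0.59 (SE 0.41; 0.25 to 1.15 with a library left out) and CBR1, the reductase of cytochrome b5, which passes electrons to desaturases, 0.76 (SE 1.00). FAT1 encodes a fatty acid importer, ACB1 an acyl-CoA binding protein and FAA2 a synthetase. Their log2FC was 0.12, 0.19 and −0.01 at 37°C against 25°C (SE 0.33, 0.94 and 0.70). The intervals of ACB1 (−2.03 to 2.41) and FAA2 (−1.65 to 1.63) leave room for large differences either way. FAA2 had 3 to 11 counts per library, and ACB1 had 4 in the first 25°C replicate. The values against 30°C were −0.24, −0.90 and −0.65 (SE 0.32, 0.87 and 0.57).

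**Figure D5:**
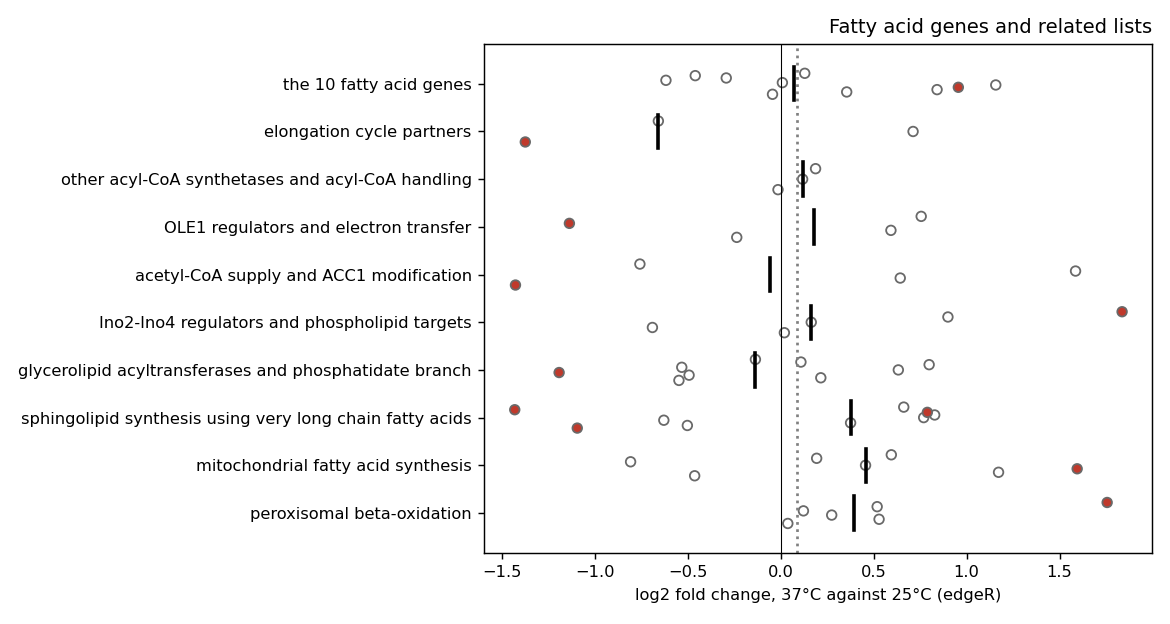
Log2 fold change at 37°C against 25°C (edgeR) of the 10 genes and of the tested members of 9 related lists; filled points have an unadjusted p below 0.05, black ticks are list medians, and the dotted line is the median of all genes, 0.09. Genes lie on both sides of 0 in all lists but peroxisomal beta-oxidation, where all 6 tested members lie above it (55.4% of all genes do). Of these, SPS19 passed the filter on low counts only through its 37°C libraries. PXA1 lies at −0.20 without the second 25°C replicate.

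Of the genes that use the products, SCS7, which hydroxylates the very long chain fatty acid of ceramide, had 8 and 10 counts at 37°C, then 22 and 18 counts at 30°C and 6 and 17 counts at 25°C. Its log2FC was −1.43 against 25°C (SE 0.48, edgeR unadjusted p = 0.0193, adjusted p = 0.305) and −1.47 against 30°C (SE 0.44). SUR2, which hydroxylates the sphingoid base, had 83.1 and 75.0 CPM at 37°C, 55.3 and 59.5 CPM at 30°C, and 47.0 and 45.0 CPM at 25°C, highest in both 37°C libraries (log2FC 0.79 against 25°C, SE 0.32, edgeR adjusted p = 0.352). LCB1, a subunit of serine palmitoyltransferase, had −1.09 (SE 0.45), or −0.55 without the first 25°C replicate. ALE1, an acyltransferase for lysophospholipids, had −1.19 (SE 0.41), or −0.62 without that library. PAH1, the phosphatidate phosphatase, had 0.63 and SLC1, which makes phosphatidate, −0.49 (SE 0.33 and 0.30).

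OPI3, a methyltransferase of phosphatidylcholine synthesis under Ino2 and Ino4, had 118 and 179 counts at 37°C, then 78 and 39 counts at 30°C and 0 and 52 counts at 25°C. It was highest in both 37°C libraries in CPM (log2FC 1.84 against 25°C, SE 0.76, edgeR unadjusted p = 0.0446, adjusted p = 0.355). The value was 1.22 without the first 25°C replicate, in which no read was counted. Without the second it was 9.77, with 0 counts left at 25°C. CHO2, for the first methylation step, had 0.90 (SE 0.68), or 0.28 if the first 25°C replicate was omitted and 2.49 if the second was, and the repressor gene OPI1 −0.69 (SE 0.58). Among mitochondrial fatty acid synthesis genes, CEM1, a ketoacyl synthase, had 39 and 44 counts at 37°C, then 22 and 12 counts at 30°C and 2 and 12 counts at 25°C. CEM1 was highest in both 37°C libraries (log2FC 1.59 against 25°C, SE 0.43, edgeR unadjusted p = 0.00743, adjusted p = 0.245; 0.97 against 30°C, SE 0.37), and its log2FC against 25°C stayed between 1.5 and 1.77 with a library left out. HFA1, the mitochondrial acetyl-CoA carboxylase, had −0.46 (SE 0.37) and the dehydratase gene HTD2 −0.81 (SE 0.58).

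Beta-oxidation breaks fatty acids down in peroxisomes. POX1 and POT1, for the first and last enzymes of the pathway, had at most 4 and 1 counts and were not tested. SPS19, which removes double bonds for beta-oxidation, had 27 and 30 counts at 37°C, then 7 and 10 counts at 30°C and 0 and 9 counts at 25°C. Its 37°C libraries were the highest in CPM (log2FC 1.76 against 25°C, SE 0.66, edgeR unadjusted p = 0.0299, adjusted p = 0.34; edgeR unadjusted p = 0.042 against 30°C), and the value against 25°C was 1.37 without the first 25°C replicate. PIP2, an activator of beta-oxidation genes, had a log2FC of 0.52 against 25°C (SE 0.47). PXA1, a subunit of the fatty acid importer of peroxisomes, had 0.53 (SE 0.51), or −0.20 without the second 25°C replicate.

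Genes whose profile over the 6 libraries was most like that of OLE1 and FAS1 were sought among 3467 other genes with a mean of at least 50 CPM, by the root mean square difference of centered log2 CPM. Nearest to OLE1 were FAB1, a lipid kinase, at 0.0878, CPA1, of arginine synthesis, at 0.103, and RAD2, a DNA repair nuclease, at 0.115, where the median of all genes was 0.612. FAS1 was 221st of 3467 in that order (0.321), FAA4 778th and ACC1 846th, and the ELO genes lay between 2609th and 3333rd. Nearest to FAS1 were SNR9, a small nucleolar RNA, at 0.0462, BRR6, at 0.0647, and RTT101, at 0.0684, with OLE1 883rd, ACC1 917th and FAS2 1848th. The nearest genes depend on the first 25°C replicate: without it, 0 of 3 were shared for OLE1 and 0 of 3 for FAS1, ACC1 was 301st and FAS2 387th for FAS1, and OLE1 was 2225th.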

How the data were processed

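The authors prepared 3′-Tag-seq (QuantSeq) libraries of total RNA, mapped reads to R64 and deposited raw counts per annotated gene. Versions in the submitters' processing notes are DESeq2 1.38.2 for the authors' comparisons, HTSeq 2.0.2 among the counting tools, and STAR 2.7.10a and UMI-tools 1.0.1. For its affinity-purified RNA the study gives the HTSeq mode intersection-nonempty; whether total RNA was counted in that mode, and the strand setting, are not given in the sources used here. A deposited normalized signal holds the same counts on the scale of a library's size factor; 100% of its values gave whole reads (within 0.001) equal to the counts, and it served for an alternative only. HTSeq's 5 summary lines were left out, of which reads fitting more than 1 place made up 7.81% to 14.1% and ambiguous reads 0.0313% to 0.0559% of a library.

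Counts of all 6 libraries were fitted with temperature as the only factor in edgeR 4.0.16 (filterByExpr, TMM factors of 0.883 to 1.12, quasi-likelihood F test, common biological coefficient of variation 0.323), with Benjamini-Hochberg adjustment over 5181 genes. IDs were matched to the RefSeq R64 annotation for 6458 of 6461 genes. The 95% interval and SE come from the coefficient without prior count. Ratios were compared by exact permutation. Alternatives were DESeq2 1.42.0, limma-voom (limma 3.58.1), other factors, filters and gene sets, fits of 2 temperatures, a replicate block and each library left out; DESeq2 without independent filtering or without the first 25°C replicate and the recovered reads were added after seeing the data, as was the profile comparison without that replicate. Tests were run on simulated data with known changes. The simulated libraries shared a common spread and none was set apart like the first 25°C replicate, so its effect was not simulated. P-values measure the spread between the 2 biological replicates of a group, pooled over the groups; where leaving out a library left 1 in a group, the other groups gave the spread.

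The members and lists were chosen with earlier results of these data known. Named were all 10 members, up to 3 tested genes of each list by unadjusted edgeR p at 37°C against 25°C, and the 3 genes nearest to OLE1 and to FAS1. POX1 and POT1, outside this rule, were named after their values were seen. Sequences were read from the RefSeq genome, R64. Protein sequences were not used here. Fits were run in R 4.3.3, and sequences and plots were handled with Biopython 1.88 and matplotlib 3.10.9 in Python 3.11.15.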

Additional observations from a re-analysis of the deposited data

How the results depend on the processing

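The depth of the first 25°C replicate and the pairs of libraries per group limit these comparisons. Of the 10 members, 1 had a 95% interval within a 2-fold difference at 37°C relative to 25°C, 2 relative to 30°C and 5 at 30°C relative to 25°C. OLE1 kept its direction at 37°C in all 17 planned settings against each lower temperature, and ELO3 in all 17 against 30°C. In these comparisons the libraries do not overlap, so a change of sign was hardly possible. With library totals as the only scaling, the median log2FC of all genes at 37°C against 25°C was 0.33, in place of 0.09, and against 30°C 0.23, in place of −0.01. ELO1 and ELO2 have no value where at least 10 counts in every library were required, and the cause of the changes below was not tested.

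At 37°C against 25°C, in place of 0 called genes, DESeq2 gave 50, fits of the 2 temperatures compared 1, library totals 7 and no filter 4. Leaving out a library gave 0 to 364, the highest without the second 25°C replicate, and 0 to 1 called members. In alternatives chosen after seeing the data, DESeq2 without independent filtering gave 43 and without the first 25°C replicate 22. Against 30°C, in place of 0, DESeq2 gave 15 and, without independent filtering, 12. Members at an unadjusted p below 0.05 against 30°C, 0 in the reported fit, were 1 with DESeq2, limma-voom, RLE factors, library totals, deposited size factors, no filter or the stricter filter, and 2 with the 2 temperatures alone. At 30°C against 25°C they were 1 with DESeq2, library totals or no filter. They were 0 to 2 in each of the 3 comparisons with a library left out.

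Whether the replicate numbers pair the libraries cannot be settled with 2 libraries per group, which give 1 difference between replicates each. Deviations of libraries with the same number correlated at 0.28 for 37°C and 25°C, −0.40 for 37°C and 30°C, and −0.53 for 30°C and 25°C. With a replicate block, edgeR called 0 genes in each comparison and counted 0 members at an unadjusted p below 0.05 at 37°C against 25°C, in place of 1 (OLE1, log2FC 0.96, unadjusted p = 0.0829).

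Settings other than leaving out a library changed the sign of these values. At 37°C against 25°C, ACC1 was 0.21 with library totals and 0.27 with the stricter filter, FAA1 0.050 with the stricter filter and FAA2 0.22 with library totals. ELO2 was −0.029 with the 2 temperatures alone, −0.031 with RLE factors, −0.019 with the deposited factors and −0.018 with no filter. At 30°C against 25°C, ACC1 was 0.048 and FAA3 0.022 with the stricter filter. FAA1 was −0.060 with DESeq2, −0.025 with the 2 temperatures alone, −0.049 with RLE factors and −0.029 with the deposited factors. FAA4 was −0.029, −0.00065, −0.041 and −0.020 in the same 4 settings.

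With a library left out, values at 37°C against 25°C that changed sign ran from −0.28 to 0.14 (ACC1), −0.35 to 0.97 (ELO2), −1.08 to 0.049 (ELO3), −0.85 to 0.17 (FAA1), −0.31 to 0.51 (FAA4), −0.16 to 0.54 (FAT1), −0.19 to 1.19 (ACB1), −1.09 to 0.47 (FAA2), −0.032 to 3.77 (CBR1), −0.27 to 2.90 (BPL1), −1.62 to 0.028 (OPI1) and −0.20 to 0.96 (PXA1). Against 30°C they ran from −1.50 to 0.82 (ELO1), −1.19 to 0.080 (ELO2) and −0.13 to 0.36 (FAA4). At 30°C against 25°C they ran from −0.34 to 0.074 (ACC1), −0.13 to 0.35 (FAS1), −0.10 to 1.56 (FAS2), −0.049 to 0.30 (OLE1), −0.14 to 1.71 (ELO2), −0.10 to 1.03 (ELO3), −0.51 to 0.50 (FAA1), −0.48 to 0.079 (FAA3) and −0.39 to 0.43 (FAA4). The log2 ratio of OLE1 to FAS1 plus FAS2 differed by −0.16 to 0.69 at 37°C relative to 25°C and by −0.65 to 0.20 between 30°C and 25°C, and that of FAS1 to FAS2 by −0.29 to 0.075 at 37°C against 30°C. Without the second 25°C replicate, 4 of 50 related genes (8%) passed the threshold at 37°C against 25°C, beside 6.83% of all 5326 genes tested: ACS2, OPI3, ALE1 and LCB1 (edgeR adjusted p of 0.0455 to 0.0478). An arm left with 1 library is assumed to vary like the other groups, and for OPI3 that library has 0 counts. Ranges without a change of sign were −1.03 to −0.35 (TSC13), −1.16 to −0.53 (SNF1), −0.66 to −0.31 (SLC1), −0.81 to −0.17 (HFA1), −1.25 to −0.65 (HTD2) and 0.37 to 0.85 (PIP2).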
